A study of Homo sapiens with 6 samples.

Results

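The genes described here are those of the spliceosomal small nuclear RNAs (snRNAs) and their copies in the genome. They were taken as every row of the deposited gene table whose symbol begins with RNVU1 or with RNU and the name of a spliceosomal class, or is the bare name of a major class. The rule found 53 of the 15917 genes listed, of which 21 are functional genes by their approved names and 32 are further copies, all of them named as pseudogenes. U1 had 19 members, U2 had 9, U4 had 4, U5 had 8 and U6 had 9. The minor classes U11, U12, U4atac and U6atac had 1 member each. No row carried only a bare class name. U7, which acts in histone mRNA 3′ end processing and not in splicing, had no row although 149 U7 loci are annotated.

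The study sequenced total RNA of MDA-MB-231, an established triple-negative human breast cancer line of mesenchymal appearance, to ask what changes when the RNA-binding protein RBMS3 is depleted. There were 6 libraries in 3 groups of 2, which were shCTRL with a control hairpin (genotype given as WT) and shRBMS3-B3 and shRBMS3-C3 with either of 2 hairpins against *RBMS3* (given as RBMS3 KD1 and KD2). All groups were the same line carrying a lentiviral hairpin under puromycin selection, so each is a selected pool and not a clone. The labels call the 2 libraries of each group biological replicates.

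The only values used are the authors' mean normalized counts, a single number per gene that pools libraries. They have no SD and no replicate number, the libraries behind them are not stated, and their depth is unknown. No level can therefore be set against a replicate spread, and no test was run on these means. The authors' own comparison of knockdown and control in the same table was not used, so neither knockdown group is compared with the control here. What follows is a description of which snRNA genes were recovered and at what level in these cells as a whole. In bulk RNA, fewer cells that express a gene and less RNA per cell cannot be told apart. Of 5 genes that mark mesenchymal-like breast cancer lines, all 5 were listed, with *VIM* at a mean normalized count of 69335 and *AXL* at 35388. Of 6 luminal markers, 3 were listed, with *GATA3* at 171, *EPCAM* at 107 and *CDH1* at 31.6. *ESR1*, *PGR* and *FOXA1* were not listed, nor were the leukocyte genes *PTPRC* and *CD3E*, while the endothelial gene *PECAM1* was listed at 69.0. *RBMS3* itself was at 272, a mean over libraries that checks nothing about its depletion.

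Spliceosomal snRNAs are short, highly structured RNAs that form the core of the splicing machinery together with proteins. U1 pairs with the 5′ splice site and U2 with the branch point. U4 carries U6 into the spliceosome in a paired form and releases it, after which U6 replaces U1 at the 5′ splice site and pairs with U2 to build the catalytic centre, while U5 holds the ends of the exons together. U11, U12, U4atac and U6atac play the corresponding parts in the splicing of the rare minor introns, with U5 shared by both machineries. Most snRNAs are made by RNA polymerase II and receive a ring of Sm proteins in the cytoplasm. U6 and U6atac are made by RNA polymerase III, stay in the nucleus and receive LSm proteins at their 3′ end. The genome holds many more copies of these genes than are known to function, some nearly or fully identical to a functional gene.

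The sequences below are those of the reference genome GRCh38, shown because the report turns on how alike they are. They are from the members that hold most of the level of U1, U2 and U4. The U1 copies with the highest levels, *RNU1-117P* and *RNU1-11P*, are added. U1 is represented by *RNU1-1* (chr1:16514122-16514285, minus strand), with the bases that pair with the 5′ splice site in capitals. *RNVU1-7*, a variant U1 gene at chr1:148038753-148038916 on the minus strand, and the copy *RNU1-11P* at chr6:13214056-13214219 on the plus strand follow with the bases that differ from *RNU1-1* in capitals. *RNU1-117P*, a diverged copy at chr12:88581639-88581796 on the plus strand, has no capitals.
RNU1-1: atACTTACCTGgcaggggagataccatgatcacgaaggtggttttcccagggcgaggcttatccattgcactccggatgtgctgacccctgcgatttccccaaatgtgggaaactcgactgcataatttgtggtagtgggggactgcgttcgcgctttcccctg
RNVU1-7: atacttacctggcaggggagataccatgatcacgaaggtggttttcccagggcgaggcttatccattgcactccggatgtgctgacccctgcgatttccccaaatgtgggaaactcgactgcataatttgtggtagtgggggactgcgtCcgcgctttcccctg
RNU1-11P: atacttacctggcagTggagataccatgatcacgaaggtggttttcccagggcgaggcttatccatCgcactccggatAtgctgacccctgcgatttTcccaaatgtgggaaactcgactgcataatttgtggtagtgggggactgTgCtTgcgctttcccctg
RNU1-117P: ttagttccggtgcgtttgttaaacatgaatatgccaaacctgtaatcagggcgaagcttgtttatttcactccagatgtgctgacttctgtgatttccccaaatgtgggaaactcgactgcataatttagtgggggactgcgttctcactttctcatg

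For U2, *RNU2-1* (chr17:43233787-43233977, minus strand) is printed with the branch point recognition bases in capitals. *RNU2-2P* (chr11:62841619-62841809, minus strand) is printed with the bases that differ from it in capitals.
RNU2-1: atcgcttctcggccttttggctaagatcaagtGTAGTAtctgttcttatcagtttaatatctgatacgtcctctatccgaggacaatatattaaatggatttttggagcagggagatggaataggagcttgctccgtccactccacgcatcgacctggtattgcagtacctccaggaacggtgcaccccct
RNU2-2P: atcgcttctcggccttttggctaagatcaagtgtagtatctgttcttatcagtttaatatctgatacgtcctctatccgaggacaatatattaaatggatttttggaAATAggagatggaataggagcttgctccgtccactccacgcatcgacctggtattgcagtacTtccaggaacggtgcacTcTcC

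For U4, the capitals in *RNU4-1* (chr12:120293097-120293237, minus strand) mark the Sm site letters, and those in *RNU4-2* (chr12:120291763-120291903, minus strand) mark the bases that differ from *RNU4-1*.
RNU4-1: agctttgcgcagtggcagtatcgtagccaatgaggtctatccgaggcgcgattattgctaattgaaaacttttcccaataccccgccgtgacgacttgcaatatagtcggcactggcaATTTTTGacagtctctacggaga
RNU4-2: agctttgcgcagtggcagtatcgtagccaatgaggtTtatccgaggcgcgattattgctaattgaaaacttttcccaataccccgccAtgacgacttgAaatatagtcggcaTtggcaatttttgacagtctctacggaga

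The minor snRNAs are shown as the only listed member of each of their classes. *RNU11* (chr1:28648600-28648733, plus strand) and *RNU4ATAC* (chr2:121530881-121531007, plus strand) have the Sm site letters in capitals. *RNU12* (chr22:42615244-42615393, plus strand) has the bases that recognise the minor branch point in capitals. *RNU6ATAC* (chr9:134164439-134164564, minus strand) has none.
RNU11: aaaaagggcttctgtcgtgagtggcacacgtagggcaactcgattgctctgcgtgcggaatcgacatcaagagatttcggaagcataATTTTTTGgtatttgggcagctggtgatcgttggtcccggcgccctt
RNU12: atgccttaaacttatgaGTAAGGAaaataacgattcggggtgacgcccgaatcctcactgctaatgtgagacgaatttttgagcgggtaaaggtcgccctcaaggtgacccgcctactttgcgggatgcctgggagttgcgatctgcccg
RNU4ATAC: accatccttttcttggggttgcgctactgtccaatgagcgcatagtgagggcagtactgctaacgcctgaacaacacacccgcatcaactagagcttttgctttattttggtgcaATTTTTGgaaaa
RNU6ATAC: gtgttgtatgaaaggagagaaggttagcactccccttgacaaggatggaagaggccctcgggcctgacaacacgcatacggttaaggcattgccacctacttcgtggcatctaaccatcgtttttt

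All 53 members were found by their identifiers in GENCODE 44 on GRCh38, 52 of them as genes of type snRNA. They lay on 19 chromosomes, with 16 on chromosome 1, among which were 8 U1 and 6 U5 members. For 2 members the annotation gives another name. *RNU1-13P* is now *RNVU1-2*, a variant U1 gene, and was counted as functional. The row named *RNU12* carries the identifier of a non-coding transcript of 664 bases whose first 150 bases equal the U12 snRNA. It was counted as functional by its name.

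The level of the members was concentrated in very few rows. Together they held 1.19% of the summed level of the table, and *RNU1-1* alone held 49.7% of the members' sum. The 4 highest members, *RNU1-1*, *RNU2-1*, *RNVU1-7* and *RNU2-2P*, held 87.0%, and with *RNU4-2* and *RNU4-1* the share reached 93.4%. The median member was at a mean normalized count of 114, below the median of 364 for all listed genes, and 36 members lay below that median. As a mean normalized count per kilobase of exon, 52 of 53 members were above the median of 88.7 over the 15829 listed genes with a length, and *RNU12* was the exception. This count was fixed by length and says nothing of abundance. The lowest level in the table was 26.7, which puts any listed gene shorter than 301 bases above that median, and all members but the *RNU12* row are shorter.

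**Figure D1:**
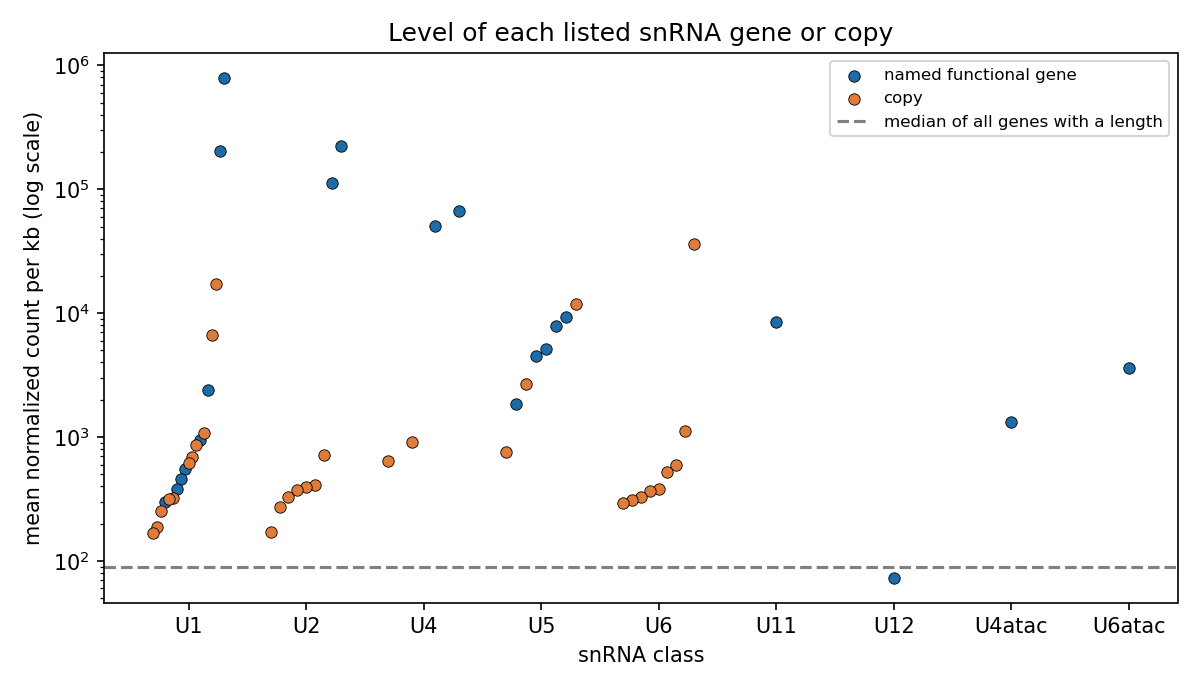
Mean normalized count per kilobase of exon (log axis) of each of the 53 members, by snRNA class, with functional genes in blue, copies in orange and the median of all listed genes as a dashed line. U1, U2 and U4 each hold a pair of functional genes far above the rest of the class, the U5 members lie close together, and the 1 high U6 member is a copy by name.

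Functional genes had a median level of 541 and copies one of 73.9, or 4510 and 464 per kilobase. The groups overlapped widely. Of the 32 copies 27 were under a mean normalized count of 200, but 4 were above 1000, as were 8 of the 21 functional genes. The highest of these 4, *RNU6-5P*, has the same bases as the functional gene *RNU6-1*, so its level cannot be assigned to a copy. GENCODE annotates 1744 loci in these classes, and the 53 members come to 3.04% of that number. The *RNU12* row is not itself 1 of these loci, as its identifier is that of a longer transcript. That leaves 52 members among the annotated loci. Of the annotated loci not named as functional, 32 of 1694 were members (1.89%). Those 1694 take in the 10 loci annotated only as U2 whose sequence equals *RNU2-1*. Among the 5 major classes the share ran from 8 of 31 loci for U5 (25.8%) through 19 of 148 for U1 (12.8%) to 9 of 1310 for U6 (0.687%). A locus below the lowest listed level would have no row, and absence of a row is not absence of the RNA.

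U1 held 64.5% of the members' summed level. *RNU1-1* had a mean normalized count of 129887, the 9th highest of the whole table, and stood at 791996 per kilobase. *RNVU1-7* followed at 33491, or 204211 per kilobase, so that *RNU1-1* was 3.88 times higher per kilobase. The reference sequences of both are 164 bases long and differ by a single substitution, T150C, counted from the 5′ end of *RNU1-1*. The next functional U1 members were far lower. *RNVU1-1* was at 394, 85.1 times below *RNVU1-7* per kilobase, and *RNU1-13P* (*RNVU1-2*) at 153. *RNVU1-15* was at 90.9, *RNVU1-19* at 76.4, *RNVU1-6* at 62.7 and *RNVU1-17* at 49.0. These 4 variant genes, and also *RNVU1-1* and *RNU1-13P*, lay in the range of the U1 copies, 27.4 to 2718. In all, 8 of 32 annotated functional U1 loci were members. Those without a member row include the 7 loci identical to *RNU1-1*, whose reads cannot be told from its own. A further functional U1 locus, *RNVU1-31*, had a row under the name RF00003, which the rule does not take. Its level of 3998 lay between *RNVU1-7* and *RNVU1-1*. The sequence of *RNVU1-31* is within 3 substitutions of both *RNU1-1* and *RNVU1-7*, so its reads are hard to tell from theirs.

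Among the 11 U1 copies, *RNU1-117P* at 2718 and *RNU1-11P* at 1086 stood above the others, which ran from 27.4 for *RNU1-83P* to 178 for *RNU1-67P*. The pair is unlike in sequence. *RNU1-11P* is 95.7% identical to *RNU1-1*, from which it differs by the 7 substitutions G16T, T67C, G79A, C98T, C147T, T149C and C151T. *RNU1-117P* is 72.9% identical, has neither the 5′ splice site pairing bases nor an Sm site by the letters searched, and its longest exact run shared with *RNU1-1* is 37 bases, at bases 93 to 129 of *RNU1-1*. It lies in an intron of a gene that has an identifier but no symbol and is not listed.

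U2 held 24.8% of the sum, nearly all of it in 2 functional genes. *RNU2-1* was at 42984, or 225049 per kilobase, and *RNU2-2P* at 21295, or 111493 per kilobase, a ratio of 2.02. *RNU2-2P* keeps the letter P of a pseudogene in its symbol, but is counted here as a functional gene. It differs from *RNU2-1* at 8 of 191 bases (G108A, C109A, A110T, G111A, C170T, C187T, C189T and T191C), and the first 107 bases are the same. The 7 U2 copies lay between 32.6 for *RNU2-59P* and 137 for *RNU2-6P*, so that none came near either functional gene. *RNU2-1* was 312 times higher per kilobase than *RNU2-6P*, although that copy is 93.2% identical to it.

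The U4 class had 2 functional genes and 2 copies. *RNU4-2* was at 9407 and *RNU4-1* at 7176, a ratio of 1.31 per kilobase for a pair that differs by C37T, G88A, C99A and C113T with *RNU4-1* as the reference. Without replicate values it cannot be said whether that ratio is larger than the spread between libraries. The copies *RNU4-7P* and *RNU4-58P* were at 129 and 89.6, and *RNU4-1* was 55.8 times higher per kilobase than *RNU4-7P*. The 141 bases of each U4 member hold the Sm site letters.

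U5 was the most even of the 5 major classes by the range of levels, with its 8 members between 90.2 and 1368. Its highest member was a copy, *RNU5E-6P* at 1368, or 11896 per kilobase. The functional genes followed with *RNU5A-1* at 1077, *RNU5B-1* at 912, *RNU5F-1* at 607, *RNU5E-1* at 541 and *RNU5D-1* at 216. Per kilobase *RNU5A-1* was 1.18 times *RNU5B-1* and 4.99 times *RNU5D-1*. The other copies were *RNU5A-8P* at 303 and *RNU5E-4P* at 90.2. *RNU5E-6P* was 2.64 times higher per kilobase than *RNU5E-1*, the functional gene its name refers to. *RNU5B-1* is 94.0% identical to *RNU5A-1*, and *RNU5D-1* 81.9%.

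U6 had 9 members, all named as copies, and none of the 5 functional U6 genes was listed. *RNU6-5P* was at 3866, or 36134 per kilobase, and the others lay between 31.2 for *RNU6-15P* and 117 for *RNU6-487P*. The step from *RNU6-5P* to *RNU6-487P* was 32.2 times per kilobase. The name of *RNU6-5P* hides that its 107 bases equal those of the functional gene *RNU6-1*. *RNU6-25P* differs from *RNU6-1* by 1 base and *RNU6-15P* by 2, yet they were at 55.5 and 31.2, and *RNU6-5P* was 69.7 and 124 times higher per kilobase. Although U4 and U6 act as a pair, their rows are not alike in scope. Per kilobase U4 had 2 functional rows, *RNU4-2* at 66716 and *RNU4-1* at 50895, while *RNU6-5P* at 36134 stands for 7 identical loci.

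The minor snRNAs were at lower levels than their major counterparts. *RNU11* was at 1137, *RNU6ATAC* at 455, *RNU4ATAC* at 168 and the *RNU12* row at 48.7. Per kilobase *RNU1-1* was 93.3 times *RNU11*, *RNU4-2* was 50.3 times *RNU4ATAC* and *RNU6-5P* was 10.0 times *RNU6ATAC*. Among the minor snRNAs themselves, *RNU11* was 2.35 times *RNU6ATAC* and *RNU6ATAC* 2.72 times *RNU4ATAC* per kilobase. The *RNU12* row came to 73.3 per kilobase of its 664 bases, and would come to 325 if all its reads were from the 150 bases of the snRNA.

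**Figure D2:**
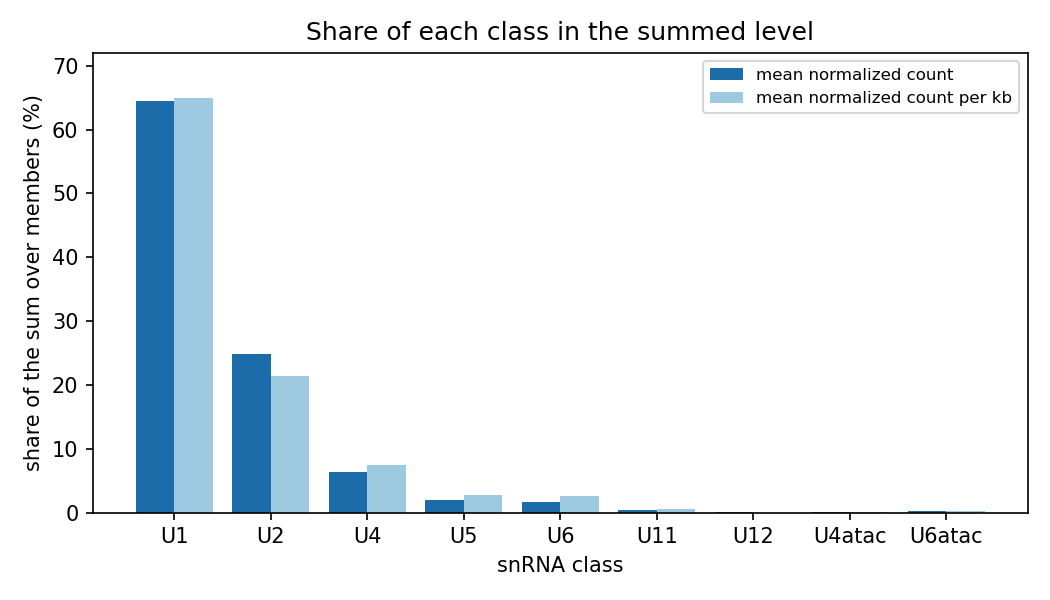
Share in percent of each snRNA class in the sum over the 53 members, from mean normalized counts (dark bars) and from mean normalized counts per kilobase (light bars). U1 holds 64.5% and 64.9%, U2 24.8% and 21.4%, U4 6.42% and 7.52%, and every other class under 5% on both scales.

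These shares do not follow the even stoichiometry of the spliceosome, in which each major snRNA is present once. The pools of snRNA in a cell do not have to follow that stoichiometry, and why the shares differ was not tested. Per kilobase *RNU1-1* was 11.9 times *RNU4-2*, 21.9 times *RNU6-5P* and 85.3 times *RNU5A-1*. These are ratios of single rows and not of classes. *RNU1-1* stands for 8 identical loci and *RNU6-5P* for 7, while U4 and U5 are spread over several functional genes. By class, the shares per kilobase were 64.9% for U1, 7.52% for U4, 2.78% for U5 and 2.53% for U6. Members other than the *RNU12* row are 104 to 194 bases long, and how fully RNAs of this size were recovered in the bead-purified libraries was not tested. A level per kilobase is therefore best read within a class, where length and sequence are alike.

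Sequence identity limits what a single row can mean. Of 26 groups of annotated loci in these classes with fully identical sequence, 3 had a listed locus, and each of the 3 had exactly 1. *RNU1-1* is 1 of 8 identical loci, the others being *RNU1-2*, *RNU1-3*, *RNU1-4*, *RNU1-27P*, *RNU1-28P*, *RNVU1-18* and *RNVU1-29*. *RNU2-1* is 1 of 11, all on chromosome 17, where the U2 genes form a tandem array. *RNU6-5P* is 1 of 7, with *RNU6-1*, *RNU6-2*, *RNU6-3P*, *RNU6-4P*, *RNU6-6P* and *RNU6-9*. Of the 26 loci in these 3 groups 23 had no row. Reads of identical sequence cannot be placed at 1 locus, so these levels belong to the sequence and not to the named gene. Salmon, which the submitters' processing notes name, estimates abundance per transcript. How identical transcripts were handled is not given in the sources used here. The same holds in part for near-identical genes. Counting loci within 3 substitutions, identical ones included, *RNU1-1* and *RNVU1-7* each have 10, of which 2 are listed. In each case these are the other gene of the pair and *RNVU1-31*, the row RF00003 at 3998. *RNU2-1* has 11, of which 1 is listed, a row named RF00004 at 169. *RNU6-5P* and *RNU6-25P* each have 25, of which 2 are listed. The identical loci named above make up 7 of the 10 for *RNU1-1* and 6 of the 25 for *RNU6-5P*. The split between *RNU1-1* and *RNVU1-7* rests on reads that cover base 150.

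Across members, 33 of 53 were at least 90% identical to the reference gene of their class. Among the copies identity ran from 70.6% for *RNU6-958P*, at a level of 40.1, to 100% for *RNU6-5P*, with a median of 90.1%. The 16 copies at or above 90% had a median level of 92.7 and the 16 below it one of 70.0. As a description across genes of the same libraries, which are not independent, Spearman's rho between identity and level was 0.04 over the 32 copies. The copies least like their reference were *RNU6-958P*, *RNU1-117P* and *RNU2-63P* (77.3% identical, at 79.4), and those most like it *RNU6-5P*, *RNU6-25P* and *RNU6-15P*. Each of these sets held both a copy above 1000 and copies under 100. In the set most like its reference, the copy above 1000 is *RNU6-5P*. Its level cannot be told from that of the functional genes it equals, and it is among the 32 copies of the rho. The longest exact run that a copy shared with its reference was between 23 and 107 bases, with a median of 38.5, and its rho with the level was 0.21.

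**Figure D3:**
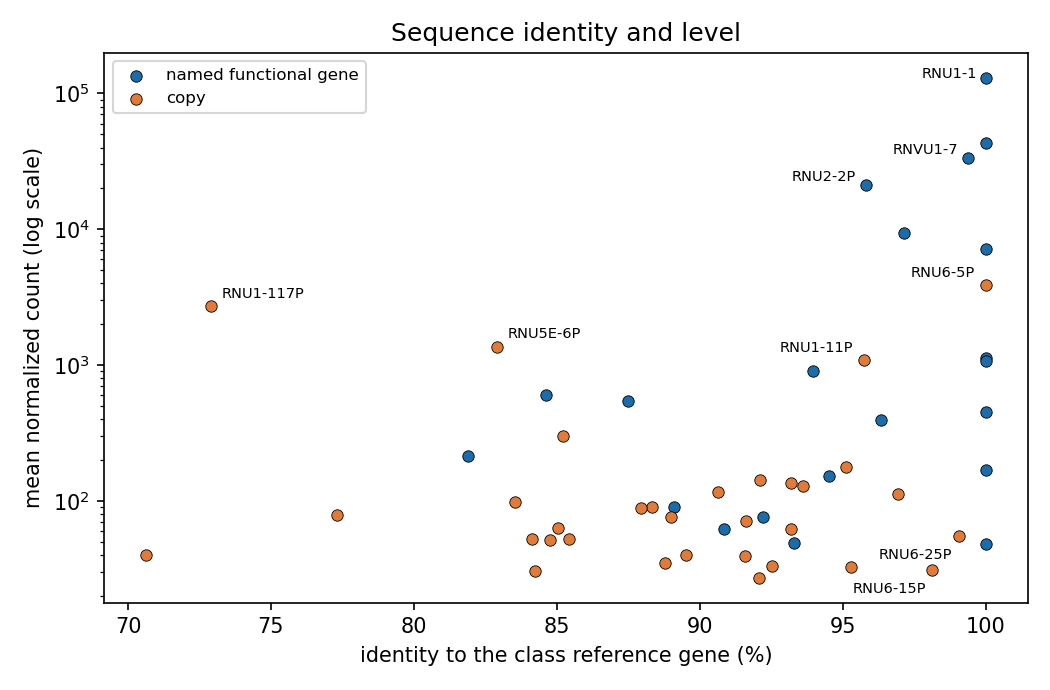
Mean normalized count (log axis) of each member against its identity in percent to the reference gene of its class, with functional genes in blue and copies in orange. Copies range from 70.6% to 100% identity with no order in their levels (rho 0.04 over 32 copies), and *RNU1-117P* at 72.9% and *RNU5E-6P* at 82.9% lie above most copies of higher identity.

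The bases by which snRNAs work were kept to different degrees. The U1 letters ACTTACCTG were found on the sense strand of 10 of 19 members, against 50 of 148 annotated U1 loci (33.8%). They were in 6 of 8 functional U1 members, with *RNU1-13P* and *RNVU1-15* lacking them, and in 4 of 11 U1 copies, near the share over all annotated U1 loci. The U2 letters GTAGTA were in 5 of 9 members and in 58.9% of annotated U2 loci. Both functional genes had them, as did 3 of 7 copies. The U5 letters GCCTTTTAC, of the loop that contacts the exons, were in all 8 U5 members, copies included, against 14 of 31 annotated U5 loci (45.2%). The U6 letters ACAGAGA were in 7 of 9 members and 53.7% of annotated U6 loci, with *RNU6-487P* and *RNU6-958P* lacking them. The U12 letters GTAAGGA were in the *RNU12* row.

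An Sm site, searched as ATTTNTG or ATTTTTTG on the sense strand, was in 37 of the 43 members outside U6 and U6atac, and in 224 of 392 annotated loci of the same classes (57.1%). It was in 19 of 20 functional members and 18 of 23 copies. *RNVU1-15* was the functional gene without it, and it also lacked the 5′ splice site letters. In U6, which is bound by LSm proteins, the same letters were in 2 of 9 members, and *RNU6ATAC* had none. A missing match means only that these letters are not in the reference sequence of the locus.

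Upstream regions were read from the genome as 250 bases before to 50 after the start of each member. The octamer ATGCAAAT, the binding letters of POU2F1 (OCT1) in the distal element of snRNA promoters, was present on either strand in 8 of 21 functional genes and 5 of 32 copies. It was present in 623 of 35116 RefSeq promoters of the same length on GRCh38 (1.77%). The octamer was not counted at the annotated snRNA loci that are not members. Whether it is more frequent at the members than at those loci was therefore not tested. U5 stood out by count, with the octamer at 7 of 8 members, *RNU5D-1* being without it. The copies with it included *RNU5E-6P*, *RNU5A-8P* and *RNU5E-4P*. It was also found at *RNU2-1*, *RNU4-2*, *RNU11* and *RNU4ATAC*, but not at *RNU1-1*, *RNVU1-7*, *RNU2-2P* or *RNU4-1*. The letters TATAAA, the plain form of the TATA box that marks polymerase III snRNA promoters, were at no member from 40 to 15 bases before the start, and at 806 of the RefSeq promoters (2.30%). A TATA box spelled with other letters would not be found by this search, so its absence is not shown.

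Total RNA holds introns, so a copy inside another gene may be counted with that gene's transcript. On the same strand, 22 members lay inside another gene, 8 functional genes and 14 copies, and 11 of these were in an intron of a protein-coding gene. A listed host is described for 9 members. For 7 of these 9 the lowest listed level and the short length already placed the member above the exons of its host per kilobase, so that only the 2 in *WDR74* and *CBX1* could have lain on either side. *RNU2-2P* overlapped an exon of *WDR74*, which was at 223 per kilobase, a ratio of 499. By contrast *RNU6-1201P* was at 326 per kilobase inside an intron of *CBX1*, a heterochromatin protein gene at 787, a ratio of 0.414. The other ratios are bounded from below by that lowest level. *RNU1-11P*, in an intron of the actin regulator gene *PHACTR1*, was at 6623 per kilobase against 6.87 for the host, a ratio of 964. *RNU1-83P* in *PPM1H*, *RNU1-16P* in *DCUN1D2*, *RNU1-67P* in *SLC25A43* and *RNU2-33P* in *GSKIP* were between 4.75 and 8.78 times their hosts. The variant genes *RNVU1-1* and *RNU1-13P* both lay in *LINC01138*, at 303 and 120 times its level per kilobase. Member and host level had a rho of -0.13 over these 9 members. Copies inside a gene had a median level of 81.0 and those outside one of 73.9. How much of any copy's level came from host transcripts was not tested.

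**Figure D4:**
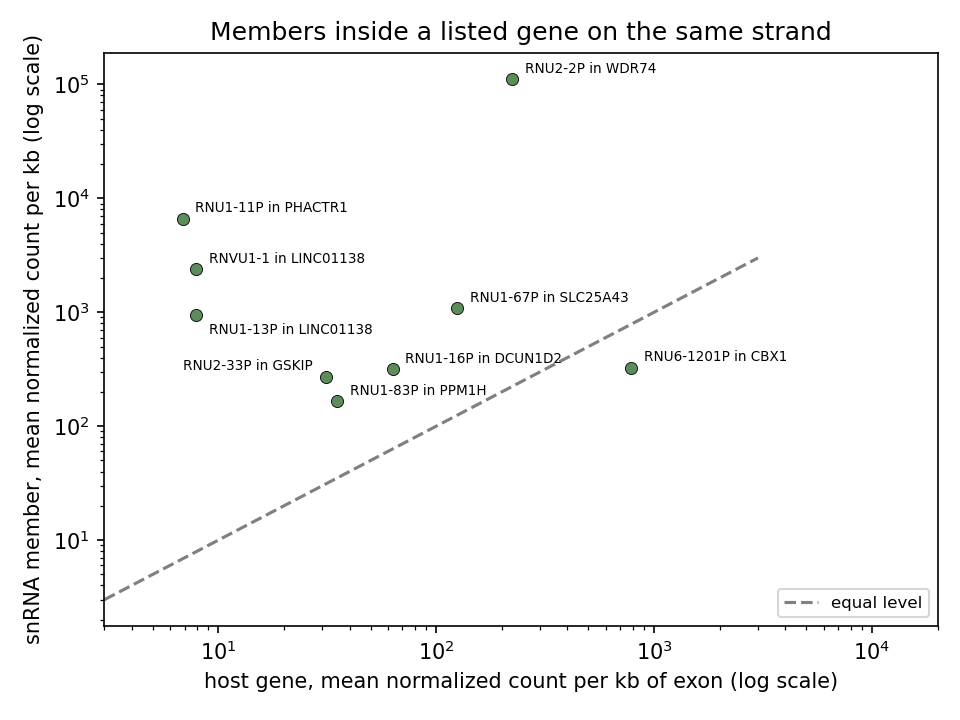
Mean normalized count per kilobase of 9 members that lie inside a listed gene on the same strand, against that of the host gene's exons, both on log axes, with the line of equal level dashed. For 7 of the 9 the lowest listed level over the member's length already lies above the line. Of the other 2, *RNU2-2P* in *WDR74* lies above it at a ratio of 499 and *RNU6-1201P* in *CBX1* below it at 0.414.

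The genes taken for snRNA-binding proteins and for snRNA synthesis were nearly all listed, 102 of 103, with *SNRPN* the exception. Their median was 204 per kilobase and 73 of them (71.6%) were above the median of all genes. The core proteins of the major snRNPs were the highest groups. The 3 genes of U1 proteins had a median of 1253 per kilobase, led by *SNRPC* at 2521. The 12 U2 genes had a median of 590, the 8 U5 genes one of 468 with *PRPF8* at 1722, and the 6 U4/U6 genes one of 352. The 7 listed Sm genes, led by *SNRPD2* at 1710, had a median of 386 and the 7 LSm genes one of 274.

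The 8 genes of U11/U12 proteins formed the lowest group, with a median of 56.3 per kilobase, and 2 of them were above the median of all genes. *SNRNP25* was highest at 261 and *ZRSR2* lowest at 16.2. The group taken for U7 was fully listed, with a median of 154 per kilobase, although no U7 gene was. It is not limited to proteins of the U7 snRNP. It takes in *SLBP*, which binds the histone stem-loop, at 1393, and *ZNF473* at 80.6, beside *LSM10* at 228 and *LSM11* at 37.3. The transcription group of 11 genes had a median of 89.6, which is the value of *BRF1*, and was led by *SNAPC1* at 617. It takes in general transcription factors such as *BRF1* and is not limited to factors of snRNA genes. The Integrator subunits, which cut the 3′ ends, had one of 119. The transport and assembly factors had one of 171 and ranged from 7.46 for *GEMIN8* to 1014 for *STRAP*. The factors that act on the end of U6 had one of 123, with *MEPCE* highest at 425. Protein genes and snRNAs keep a fixed ratio in a snRNP, but mRNA levels do not have to follow it, and these values are given side by side only.

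**Figure D5:**
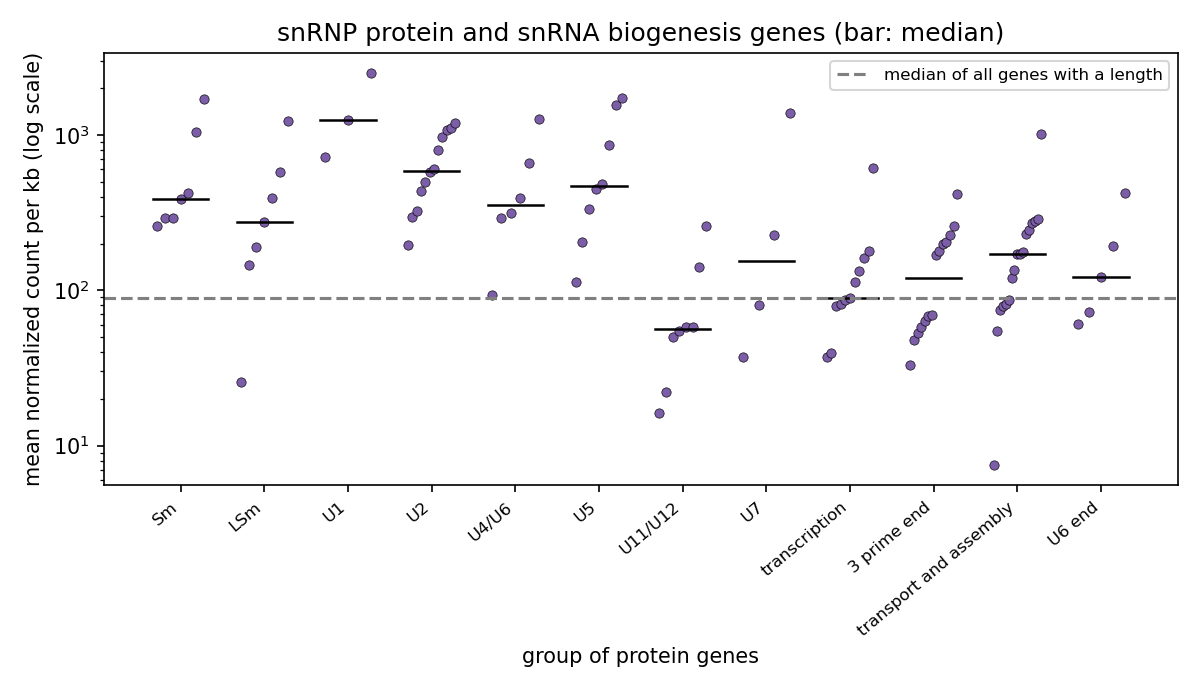
Mean normalized count per kilobase (log axis) of 102 listed genes for snRNP proteins and snRNA biogenesis, by group, with a bar at each group's median and the median of all listed genes as a dashed line. The U1 group has the highest median (1253) and the U11/U12 group the lowest (56.3), below the dashed line.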

How the data were processed

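Total RNA of MDA-MB-231 cells was made into libraries by the authors with a stranded kit for 5 ng of input, ribosomal cDNA was removed, and paired ends were sequenced. The submitters' processing notes name hg38, Salmon and DESeq2 without versions or roles. The authors deposited 1 table, whose signal column, the mean normalized count per gene, was the only column used. The 5 other value columns hold the authors' own comparison (log2 fold change, its standard error, a statistic, p and adjusted p) and were not used. Depth per sample is unknown.

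Levels per kilobase are the mean normalized count divided by the union of exons of GENCODE 44, in units of 1000 bases. The annotation of the authors is not given in the sources used here. Members were aligned to the reference gene of their class (match 2, mismatch -1, gap opening -4, gap extension -1, end gaps free) with Biopython 1.88, after a check on simulated sequences. Python 3.11.15, pandas 2.3.3, numpy 2.4.6, SciPy 1.17.1 and matplotlib 3.10.9 were used. Identical loci were compared on the sense strand. The 35116 upstream regions of all genes came from RefSeq, whose table did not match the symbols of members, so theirs were read from GRCh38. Named were all functional members, the 3 highest and the lowest of each class, and the 3 most and least alike to their reference; other members are named for a feature seen in their values. Members and lists were chosen with earlier results of these data known. Alternatives were other level filters, lengths, identity limits and definitions of host genes. The host of 1 member and the sequences of U5 and U6 members are not reported here, and host ratios and correlations leave that member out.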

Additional observations from a re-analysis of the deposited data

How the results depend on the processing

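No paired analysis was possible because the mean normalized count, the only column used, is a single pooled value per gene. For the same reason leaving out each replicate, other normalizations and other tests were not run. A value with no test was taken as moved when it differed by over 1.5 times, and a rho when it differed by 0.2 or more. Over 19 results, 30 of 45 alternatives stayed within that limit and 15 moved. Counting only members at or above the table's median level left 17 of 53. With a filter at the first quartile of all genes, which removes low copies by construction, the median level was 394 for U1 (99.3 without the filter), 21295 for U2 (76.2), 7176 for U4 (3652) and 1992 for U6 (40.1). Without *RNU1-1*, which holds 49.7% of the sum, the shares were 29.5% for U1, 49.2% for U2, 12.8% for U4, 3.88% for U5 and 3.25% for U6, so that U2 and not U1 was then the largest class. Per kilobase the U6 share was 2.53% in place of 1.64%. An identity limit of 80% kept 50 members and one of 95% kept 19, against 33. Restricting hosts to introns of protein-coding genes gave 11 members in place of 22. With hosts on either strand, rho between member and host level was -0.35 over 16 members, against -0.13. The smallest listed level, 26.7, sets what could be seen of low copies.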

Other observations

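Besides the 53 members, 3 rows carry an RNA family number in place of a symbol but are annotated in GENCODE 44 as spliceosomal snRNAs. RF00003 is the variant U1 gene *RNVU1-31* and was at a mean normalized count of 3998, or 24380 per kilobase, which would place it after *RNVU1-7* among the U1 genes. RF00004, annotated as a U2 gene, was at 169, and RF00015, annotated as a U4 gene, at 55.1. RF00003 lies within 3 substitutions of *RNU1-1* and RF00004 within 3 of *RNU2-1*, so the limit given above for near-identical genes holds for both. The 3 rows were left out of all counts of members because their symbols do not meet the rule.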
